A study of Homo sapiens with 10 samples.

Results

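The miR-140 hairpin lies inside the gene WWP2 and gives rise to 2 mature microRNAs (miRNAs), miR-140-5p from its 5′ strand and miR-140-3p from its 3′ strand. Both were taken from the array files by exact name (hsa-miR-140-5p and hsa-miR-140-3p), which found 2 of 2565 miRNA probes, and the hairpin itself was chosen by the normalized intensities of its arms with lenvatinib against control. The cells were HuH-7, an established line derived from a human hepatocellular carcinoma. The 5 lenvatinib samples were kept for 96 h with 1 µM lenvatinib, an oral inhibitor of VEGF and FGF receptor tyrosine kinases, and the 5 control samples were kept for 96 h without it. Both groups were grown in the same low-glucose medium with fetal bovine serum, and each RNA was labelled with Cy5 and hybridised to its own 3D-Gene miRNA array. The submitters asked which miRNAs go with the antitumour effect of lenvatinib. The extraction label speaks of serum although all other labels describe cultured cells, and no label says whether the 5 samples of a group came from separate cultures. The spread given here is therefore that between arrays, which may be technical, and 5 arrays a group limit the precision.

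WWP2 encodes an E3 ubiquitin ligase of the NEDD4 family, and miR-140 is transcribed with it from an intron. MiR-140 is best known from cartilage, where the transcription factor SOX9 drives it, and mice without it have skeletal defects. During maturation Drosha and Dicer cut the hairpin into a duplex, and either strand may be loaded onto an Argonaute protein, so the arms of a hairpin share a transcript but can differ in abundance. In liver cancer cells miR-140-5p has been reported to repress TGFBR1, a TGF-beta receptor, and FGF9, a ligand of the FGF receptors that lenvatinib inhibits.

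The mature strands are shown because each carries its own seed, bases 2 to 8, which is written in capitals and sets the targets. Sequences are those of RefSeq on GRCh38.p14, and both members matched by name.
miR-140-5p: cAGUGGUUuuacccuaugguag
miR-140-3p: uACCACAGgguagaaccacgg
No other mature miRNA among the 2370 names in that table shared either seed. The table covers 87.0% of the tested probes, and the seeds of probes without a sequence there were not checked. The hairpin is shown next, with both mature strands in capitals, because its strands are the 2 probes compared.
MIR140 hairpin: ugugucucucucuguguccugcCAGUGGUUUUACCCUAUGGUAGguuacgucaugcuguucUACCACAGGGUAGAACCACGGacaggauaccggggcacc
It spans chr16:69933081-69933180 on the plus strand, with miR-140-5p at chr16:69933103-69933124 and miR-140-3p at chr16:69933142-69933162, 17 bases apart. WWP2 spans chr16:69762332-69941739 on the same strand, and the hairpin starts 8042 bases after the nearest of 3 WWP2 starts listed in the RefSeq table. RNAfold predicted that 19 of the 22 bases of miR-140-5p pair with miR-140-3p, including 6 of the 7 seed bases of either arm. G and C made up 45.5% of miR-140-5p and 57.1% of miR-140-3p.

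The arrays of the 2 groups differed in brightness before any miRNA was considered. Blank spots, which carry no probe, averaged 62.2 to 85.5 intensity units on lenvatinib arrays and 30.9 to 34.6 on control arrays. In log2 units the spike control spots were 1.23 higher on lenvatinib arrays, and the array median over always-detected miRNAs 1.36 higher. What made the lenvatinib arrays brighter cannot be told apart from the treatment, and all changes below are relative to the bulk of the miRNAs unless raw or background-subtracted brightness is named. Lenvatinib replicate 5 stood apart, with the brightest blanks and correlations of 0.938 to 0.947 with the other lenvatinib arrays, against 0.967 to 0.981 among those 4. The 5 liver markers were detected on all 10 arrays, and 4 of them passed limma's adjusted p of 0.05, miR-122-5p at 0.35, miR-192-5p at 0.45 and miR-194-5p at 0.59 higher with lenvatinib, and miR-885-5p at -1.22. MiR-122-3p was at -0.11 and did not pass, and the part of these shifts in the values of miR-140 was not tested. These are quantile-normalized values, in which miR-122-5p was nearly equal on all lenvatinib arrays (SD 0.003). Other scalings of the liver markers are not given here. Of 11 markers of erythroid, leukocyte, endothelial, stromal, muscle and neural cells, 8 were bright enough to be tested and 0 passed (limma, adjusted p under 0.05). Of all tested probes 21.5% passed in either direction, so nothing is read from the marker counts. MiR-126-3p, miR-143-3p and miR-145-5p were detected on all 10 arrays. On lenvatinib arrays miR-133a-3p was detected on 2 and miR-451a and miR-124-3p on 3 each.

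Both arms of miR-140 gave brighter spots on lenvatinib arrays, as the blanks did, and miR-140-5p brightened the less. Raw brightness of miR-140-5p was 144, 143, 141, 141 and 119 on lenvatinib replicates 1 to 5, against 95.6, 82.8, 98.7, 87.8 and 94.8 on control replicates 1 to 5. The groups did not overlap, and the lowest lenvatinib spot lay on the array with the brightest blanks. Raw brightness of miR-140-3p was 153, 186, 172, 218 and 170.5 on lenvatinib arrays, against 88.9, 89.5, 98.0, 85.5 and 94.8 on control arrays. Here too the groups did not overlap, and replicate 4 was the brightest. As a multiple of the blank level of the same array, miR-140-5p was at 2.07 ± 0.38 with lenvatinib and 2.76 ± 0.19 in controls (SD, n = 5 each), with no overlap. The same multiple for miR-140-3p was 2.69 ± 0.53 with lenvatinib and 2.74 ± 0.08 in controls, and these overlapped. Both arms lay above the detection limit, the blank mean plus 2 SD, on all 10 arrays, and none of their spots was marked as bad.

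**Figure D1:**
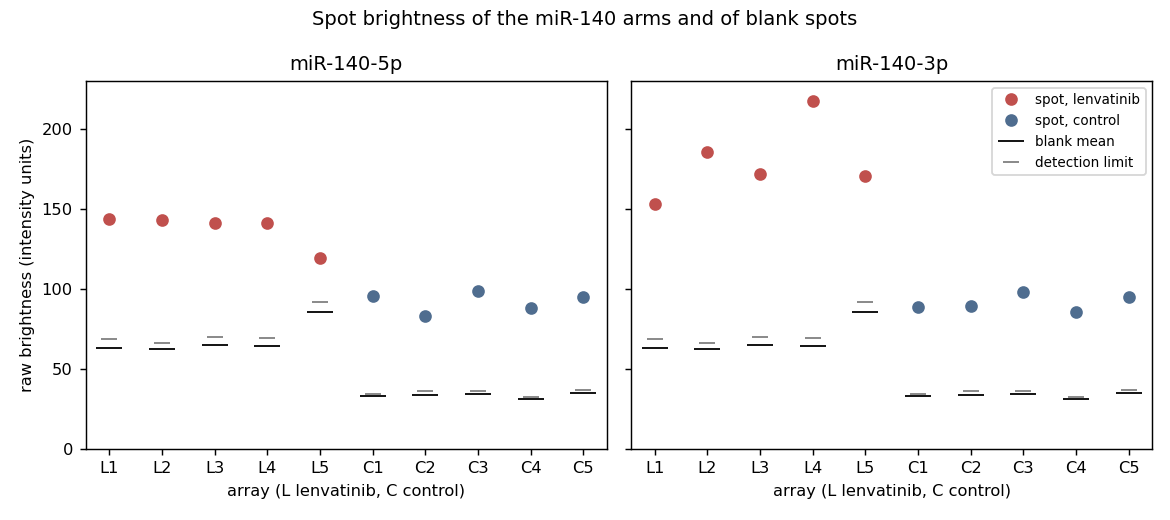
Raw brightness of the miR-140-5p spot (left) and the miR-140-3p spot (right) on each array, in linear intensity units, with the mean of the blank spots (black bar) and the detection limit (grey bar) of the same array. L1 to L5 are lenvatinib and C1 to C5 control replicates. Blanks lie at 62.2 to 85.5 on lenvatinib arrays and at 30.9 to 34.6 on control arrays, and every spot lies above its limit.

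After subtraction of the background the arms differed in what the groups showed. MiR-140-5p had 81.1, 80.6, 76.2, 76.4 and 33.9 intensity units on lenvatinib replicates 1 to 5, against 62.7, 48.9, 64.4, 56.9 and 60.1 on control replicates. The groups overlapped through lenvatinib replicate 5 alone, since the other 4 lenvatinib arrays exceeded every control array. MiR-140-3p had 90.6, 123, 107, 153 and 85.0 on lenvatinib arrays, against 56.0, 55.6, 63.7, 54.6 and 60.2 on control arrays, with no overlap. The mean of miR-140-5p with lenvatinib was 1.19 times that of controls, and the mean of miR-140-3p 1.93 times. On the log2 scale both lay below the 1.36 by which the median miRNA was brighter, so that scaling the arrays to each other gives lower values for both arms. In bulk RNA of this kind, fewer cells that hold a miRNA and less of it per cell cannot be told apart.

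Since the hairpin was picked for this comparison, its changes are given as a description without a test. After quantile normalization, miR-140-5p was 2.54-fold lower with lenvatinib and miR-140-3p 1.53-fold lower. The normalized log2 value of miR-140-5p was 5.74, 5.62, 5.52, 5.39 and 4.10 on lenvatinib replicates 1 to 5, against 6.70, 6.49, 6.65, 6.62 and 6.64 on control replicates 1 to 5. Every lenvatinib value lay below every control value, and replicate 5 differed from the mean of the other 4 lenvatinib arrays by -1.47. The mean was 5.27 ± 0.67 with lenvatinib and 6.62 ± 0.08 in controls (SD, n = 5 each), a log2 change of -1.34 ± 0.27 (SE, limma). Without lenvatinib replicate 5 the change was -1.04 ± 0.10.

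MiR-140-3p moved the same way by a smaller amount. Its normalized log2 value was 5.84, 6.23, 5.93, 6.35 and 5.69 on lenvatinib arrays, against 6.53, 6.79, 6.63, 6.52 and 6.65 on control arrays. The groups again did not overlap, and lenvatinib replicate 4 came nearest to the controls. The mean was 6.01 ± 0.27 with lenvatinib and 6.62 ± 0.11 in controls (SD, n = 5 each), a log2 change of -0.62 ± 0.15 (SE, limma), and -0.53 ± 0.13 without lenvatinib replicate 5. Both arms were thus below the control range, as were 8.84% of the 1346 probes tested. Both were also among the probes past limma's adjusted p of 0.05 in the downward direction, 9.36% of those tested, and since this comparison chose the hairpin nothing is read from either count. Among the 1346 changes, miR-140-5p was the 10th from the lowest and miR-140-3p the 133rd.

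**Figure D2:**
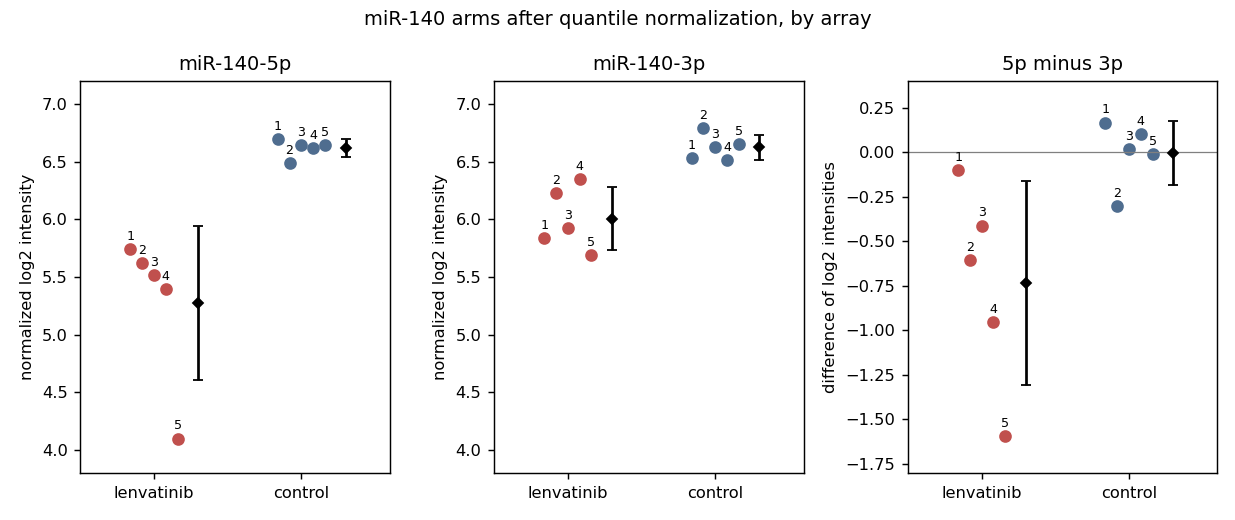
Quantile-normalized log2 intensity of miR-140-5p and miR-140-3p on each array, and the difference of the arms on the same array, with lenvatinib left of control. Numbers are replicates, and the diamond with its bar is the mean ± SD of 5 arrays. Both arms lie below the control range on all 5 lenvatinib arrays, while the difference of the arms overlaps between the groups.

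In the authors' own normalized values miR-140-5p was again lower on every lenvatinib array, while the separation of miR-140-3p depended on the version. In the deposited globally normalized intensities, which set each array's median to 25, miR-140-5p was at 128, 156, 121, 125 and 38.9 on lenvatinib arrays, against 263, 198, 233, 241 and 221 on control arrays. None of the lenvatinib values reached the control range. MiR-140-3p was at 144, 239, 169.6, 251 and 97.5 on lenvatinib arrays, against 235, 225, 231, 231 and 221 on control arrays. Lenvatinib replicates 2 and 4 exceeded every control there, while replicates 1, 3 and 5 lay below all of them. In the deposited table of the whole series, which is linear and not centred, miR-140-5p averaged 52.3 ± 18.2 with lenvatinib and 123.7 ± 6.99 in controls, and miR-140-3p 80.5 ± 16.4 and 124.4 ± 10.0 (SD, n = 5 each). Neither arm overlapped there, with miR-140-5p at 21.1 to 67.1 with lenvatinib against 112.1 to 130.8 in controls. MiR-140-3p was at 60.7 to 101.4 with lenvatinib against 114.3 to 139.4 in controls.

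The question left by these values is whether the arms of the hairpin changed equally. Levels of different probes are not comparable, so only the change of their log2 difference is used. The normalized log2 value of miR-140-5p minus that of miR-140-3p was -0.10, -0.60, -0.41, -0.95 and -1.59 on lenvatinib replicates 1 to 5, against 0.17, -0.30, 0.02, 0.10 and -0.01 on control replicates 1 to 5. The groups overlapped, because lenvatinib replicate 1 lay inside the control range, and the lenvatinib arrays were more spread than the controls. The mean difference was -0.73 ± 0.57 with lenvatinib and -0.01 ± 0.18 in controls (SD, n = 5 each), a change of -0.73 ± 0.27 (SE, limma), which means that miR-140-5p was lower by more than miR-140-3p. Without lenvatinib replicate 5 it was -0.51 ± 0.21. Multiplying an array by 1 factor cannot change this quantity, and it stood at -0.73 with no scaling at all. It depends on the background, at -0.32 ± 0.09 with normexp correction and -0.35 ± 0.10 with no subtraction.

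**Figure D3:**
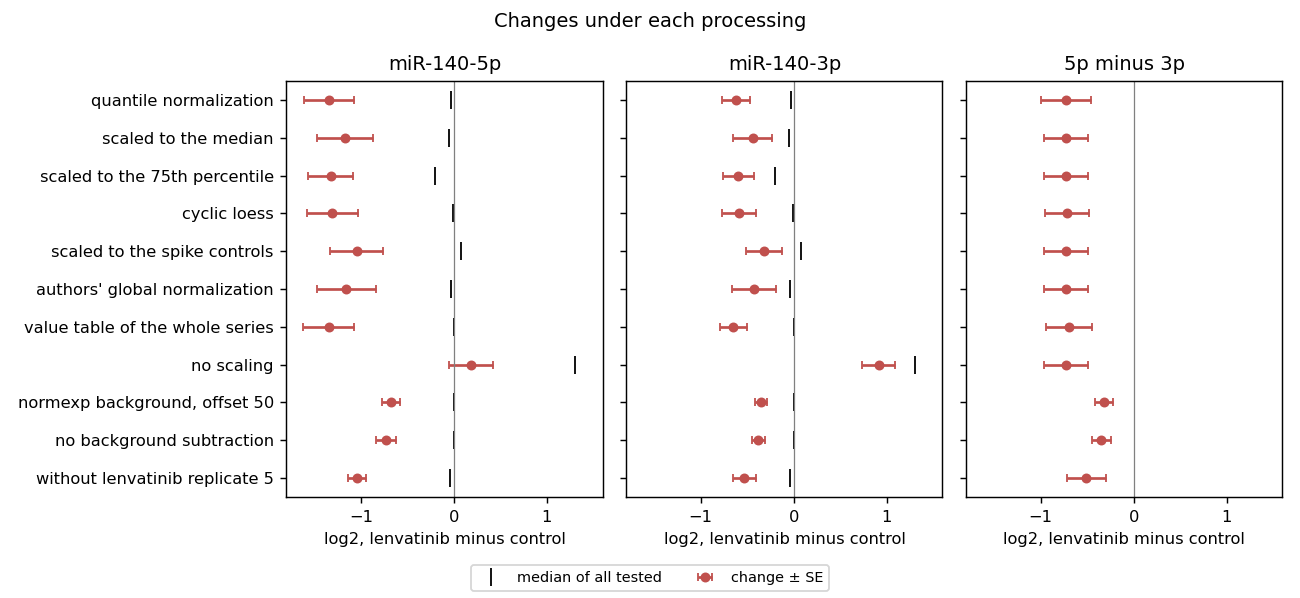
Log2 change (lenvatinib minus control) of miR-140-5p, of miR-140-3p and of their difference under 11 ways of processing, with bars of 1 SE and black ticks for the median change of all tested probes. The changes of the arms turn positive with no scaling (0.19 and 0.92), where the median of all probes is at 1.30. The difference of the arms stays below 0 in every row, but rows that only rescale whole arrays repeat the value with no scaling, -0.73.

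Across the arrays, many hairpins had a larger arm difference than miR-140. Of 336 hairpins with both arms tested, 7 had both arms past limma's threshold downward and 3 both upward. In 5 the arms passed it in opposite directions, and in 106 only 1 arm passed. An arm past the threshold beside another that is not does not test whether the arms differ. The 7, miR-140 included, were joined by miR-224, miR-582, miR-106b, miR-487b, miR-6516 and miR-21. The absolute difference of the arms' changes had a median of 0.38 over all 336, and 86 hairpins (25.6%) exceeded that of miR-140. In the same direction, 5p lower than 3p, 18 hairpins exceeded it, 5 of them among the 149 hairpins whose arms were both detected on all 10 arrays. The most negative differences belonged to miR-642b at -2.09, miR-3928 at -1.76, miR-204 at -1.73, miR-642a at -1.56 and miR-6759 at -1.10. The most positive were those of miR-6765 at 2.35, miR-6784 at 1.89, miR-6774 at 1.77, miR-125a at 1.71 and miR-671 at 1.52. Among these 10, all but miR-6765 and miR-125a lay over 1.5 times closer to 0 with normexp correction, miR-642b at -0.74 for example. MiR-140 sat outside the middle of the hairpins but far from their extremes. The changes of the 5p and 3p arms correlated at a Pearson r of 0.16 and a Spearman rho of 0.13 over the 336 hairpins, which share the same 10 arrays and are not independent.

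**Figure D4:**
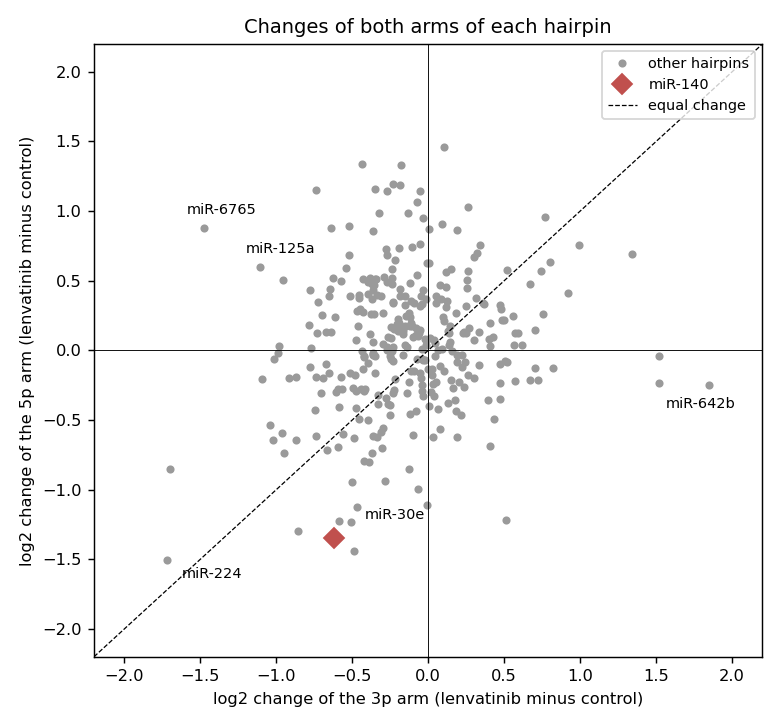
Log2 change of the 5p arm against that of the 3p arm for 336 hairpins with both arms tested, lenvatinib minus control, with the dashed line for equal change. MiR-140 lies at -0.62 on the 3p axis and -1.34 on the 5p axis, below the line, near miR-30e. MiR-642b and miR-6765 mark opposite ends of the arm difference.

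The array profiles closest to each arm belonged to different miRNAs. Closeness was the root mean square difference of log2 values over the 10 arrays, each miRNA centred on its own mean, among the miRNAs detected on all 10 arrays. For miR-140-5p the closest of 857 were miR-19a-3p, a member of the miR-17-92 cluster, at 0.11, miR-301a-3p at 0.13, miR-6765-3p at 0.13, miR-378c at 0.14 and miR-30e-5p at 0.15. Their log2 changes lay between -1.18 for miR-301a-3p and -1.47 for miR-6765-3p. Being picked for a profile like that of a hairpin that was itself chosen for these values fixes this direction and the low value on replicate 5, so both are descriptions. On lenvatinib replicate 5 these 5 differed from the mean of the other 4 lenvatinib arrays by -1.81 for miR-30e-5p to -1.24 for miR-19a-3p, beside -1.47 for miR-140-5p. Of the 858 miRNAs detected on all arrays, 57 were more than 1 log2 unit lower on that array than on the other 4, and 34 more than 1 unit higher. For miR-140-3p the closest were miR-106b-5p, which represses the cell cycle inhibitor CDKN1A, at 0.13, miR-1913 at 0.15, miR-21-5p, a repressor of PDCD4, at 0.16, miR-4711-3p at 0.16 and miR-455-3p at 0.17. The changes of the first 4 lay between -0.59 and -0.74, and miR-455-3p was at -0.40, likewise set by how they were picked. Closeness was measured on quantile-normalized values only, where miR-21-5p was nearly equal on all control arrays (SD 0.0006). With scaling to the median miR-106b-5p was at -1.01 and miR-21-5p at -0.99, beside -0.44 for miR-140-3p. MiR-1913 was then at -0.61, miR-4711-3p at -0.70 and miR-455-3p at -0.37. MiR-140-3p was the 69th closest to miR-140-5p, at 0.53, and miR-140-5p the 484th closest to miR-140-3p. The measure includes the size of a change, so these ranks partly repeat the arm difference given above.

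**Figure D5:**
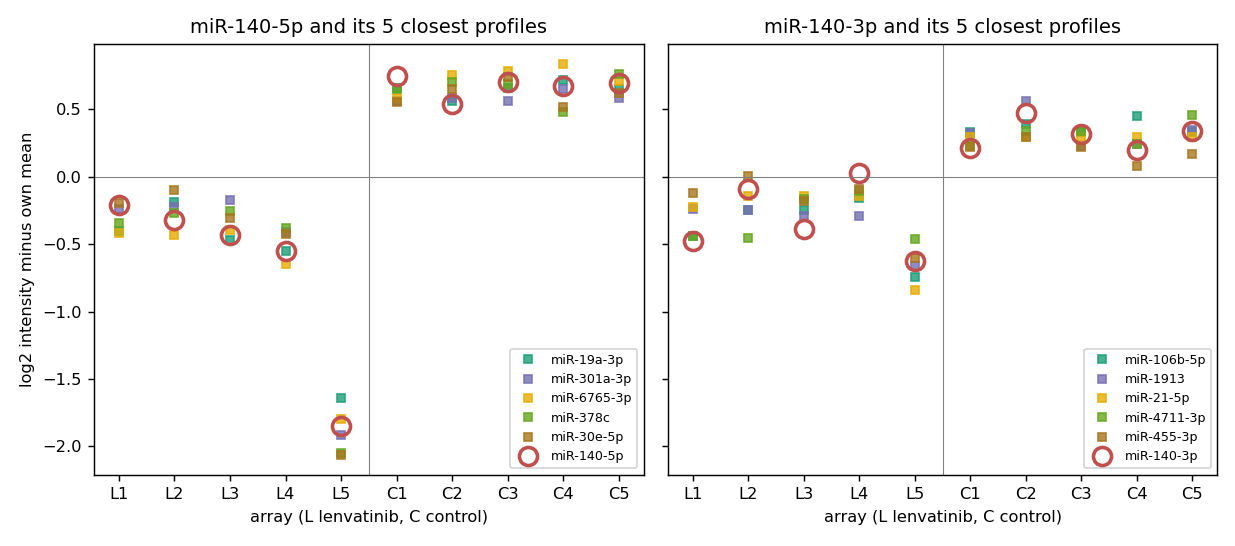
Normalized log2 intensity of each arm (open circles) and of its 5 closest miRNAs (squares) on the 10 arrays, each minus its own mean. L1 to L5 are lenvatinib and C1 to C5 control replicates. On L5 the neighbours of miR-140-5p differ from the mean of the other lenvatinib arrays by -1.81 to -1.24, and those of miR-140-3p by -0.67 to -0.17.

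Other miRNAs hosted by protein-coding genes were compared as the class to which miR-140 belongs. The list held 54 hairpins other than miR-140, and 44 of the 45 with an entry in the RefSeq tables were found within the host gene named. For the exception, miR-339, the check could not tell a missing gene name from a position outside the gene. Of their 88 tested arms, 6 rose and 17 fell (limma, adjusted p under 0.05), where 12.1% of all tested probes rose and 9.36% fell. Their median change was -0.22, against -0.03 over all tested probes. The rises included miR-218-5p, hosted by the axon guidance genes SLIT2 and SLIT3, at 1.11 ± 0.13 (adjusted p = 0.000191), miR-652-5p at 0.91 and miR-671-5p at 0.88. The falls included miR-224-5p from GABRE at -1.50 ± 0.22 (adjusted p = 0.000569), miR-106b-3p from MCM7, a replication helicase subunit, at -0.95, and miR-378a-3p from PPARGC1B, a coactivator of energy metabolism, at -0.87. With normexp correction miR-218-5p was at 0.86, but miR-671-5p at 0.43, miR-652-5p at 0.24, miR-224-5p at -0.27, miR-106b-3p at -0.30 and miR-378a-3p at -0.57. Scaling moved the number that fell to 30 with the 75th percentile, 9 with the spike controls, 10 with the authors' global normalization and 0 with no scaling, and it stayed 17 without lenvatinib replicate 5. Over all 1346 tested probes the falls in these settings numbered, in the same order, 238, 83, 96, 2 and 149, against 126 in the main fit.

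Within this class the arms of 33 hairpins could be set against each other, with a median absolute difference of 0.29. A larger absolute difference than that of miR-140 was found in 6 of the 33. Of these only miR-339 had a more negative one, at -0.92. MiR-30e, hosted by NFYC, a subunit of the CCAAT-binding factor NF-Y, came near miR-140 in both arms. Its 5p arm changed by -1.23 ± 0.32 (adjusted p = 0.0180) and its 3p arm by -0.51, a difference of -0.73 ± 0.26. Without lenvatinib replicate 5 the 5p arm was at -0.90 ± 0.10. That arm was the 5th closest profile to miR-140-5p, so its likeness is a description. The call of miR-30e-5p held in 19 of 24 alternatives and was lost with scaling to the median, the spike controls, the authors' global normalization, no scaling and no filter on dim probes. The arms of miR-224 were at -1.50 and -1.72, a difference of 0.22 ± 0.54, and whether it differs from that of miR-140 was not tested.

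Of 13 tested miRNAs linked to cartilage and SOX9, 0 rose and 2 fell (15.4%), beside 12.1% and 9.36% of all tested probes, and their median change was -0.05 against -0.03. The falls were miR-146a-5p, a feedback inhibitor of NF-kappaB signalling, at -1.64 ± 0.38 (adjusted p = 0.0102), and miR-455-5p, whose host gene COL27A1 encodes a cartilage collagen, at -0.50 ± 0.13 (adjusted p = 0.0180). The call of miR-455-5p was lost with scaling to the median, with the spike controls, with the authors' global normalization and with no scaling, and its change was -0.21 with normexp correction. The call of miR-146a-5p was lost with no scaling and with no filter on dim probes, and its change was -0.84 with normexp correction. The other arm of miR-455, miR-455-3p, was at -0.40 and is the 5th closest to miR-140-3p, as given above. Without lenvatinib replicate 5 the list had 1 rise and 4 falls, with the spike controls or the authors' global normalization 1 rise and 1 fall, with the 75th percentile or normexp correction 4 falls, and with no scaling 12 rises and 0 falls. Over all 1346 probes, 184 rose and 149 fell without that replicate, 197 and 83 with the spike controls and 151 and 96 with global normalization. The 75th percentile gave 111 and 238, normexp correction 178 and 132, and no scaling 1287 and 2.

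The last list held miRNAs reported, like miR-140-5p, to repress TGF-beta receptors or SMAD proteins. Like those above, it was chosen with earlier results of these data known, so its counts are descriptions. Of 17 tested, 0 rose and 6 fell, beside 12.1% and 9.36% of all tested probes, and their median was -0.40 against -0.03. The falls were miR-130a-3p at -0.91 ± 0.12 (adjusted p = 0.000308), miR-106b-5p at -0.74, miR-146a-5p at -1.64, miR-301a-3p at -1.18, miR-21-5p at -0.59 and miR-590-5p at -1.43 ± 0.45 (adjusted p = 0.0423). Of these, miR-106b-5p, miR-21-5p and miR-301a-3p are also among the closest profiles given above. MiR-128-3p at -0.40, miR-93-5p at -0.28 and miR-142-3p at 0.33 were among the 11 that did not pass. The call of miR-590-5p held in 11 of 24 alternative settings, with adjusted p from 0.00149 to 0.968. That of miR-301a-3p was lost with the spike controls, the authors' global normalization, no filter on dim probes and no scaling. With normexp correction miR-301a-3p was at -0.51 and miR-590-5p at -0.48. The list had 4 falls with the spike controls, with the authors' global normalization and with no filter on dim probes, 9 with normexp correction and 10 with the 75th percentile. Without lenvatinib replicate 5 it had 1 rise and 8 falls, and with no scaling 11 rises and 0 falls. Over all 1346 probes, 83 fell with the spike controls, 96 with global normalization, 132 with normexp correction and 238 with the 75th percentile. With no filter 98 of 2565 fell. Without lenvatinib replicate 5, 184 of the 1346 rose and 149 fell, and with no scaling 1287 rose and 2 fell.

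Base composition went with the changes over all miRNAs. Sequences were at hand for 87.0% of the tested probes. Those with 40% to 50% G and C, the class of miR-140-5p, had a median change of -0.10 over 196 probes, and those with 50% to 60%, the class of miR-140-3p, also -0.10, over 404. Probes with 30% to 40% were at -0.20 and those with 70% or more at 0.24. Both arms of miR-140 lay below the median of their class, and the part of base composition in their values was not tested.

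Over all probes, 289 of 1346 passed limma's adjusted p of 0.05, 163 higher and 126 lower with lenvatinib (21.5% in either direction). Scaled to the 75th percentile, 111 were higher and 238 lower. The split was 197 higher and 83 lower with spike controls as the scale, 151 and 96 with the authors' global normalization, and 1287 and 2 with no scaling. All tested probes had a median change of -0.21 with 75th-percentile scaling and of 1.30 without any. The change of miR-140-5p minus that median was -1.12 in both cases, and that of miR-140-3p -0.39. These settings differ only by a factor for each array, which makes the values agree. The same quantity was -1.32 for miR-140-5p and -0.59 for miR-140-3p in the main fit. With normexp correction it was -0.67 and -0.35.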

How the data were processed

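Each array file holds linear intensity per spot, which the authors deposited in 3 versions: raw, background-subtracted and globally normalized, per the file headers. On all 10 arrays the subtracted version was the raw value less a trimmed mean of the blanks (5% removed from either end), with a blank cell where the raw value did not pass that mean plus 2 SD. The deposited table of the whole series holds linear intensity for 803 probes, with nearly the same sorted values in each column. Scanner and software: not given in the sources used here.

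Subtracted intensities, without spots marked NG and with undetected probes at their array's lowest detected value, were quantile normalized as log2 values. The 1346 probes detected on at least 5 arrays were fitted with limma 3.58.1 in R 4.3.3, two-sided, without a replicate block, with Benjamini-Hochberg adjustment over all of them. Arm differences were fitted the same way over hairpins with both arms tested. The fit was tested on simulated data. RNAfold 2.7.2 folded the hairpin. Named miRNAs are both members, the 5 closest profiles to each arm, the 5 hairpins at each end of the arm difference and up to 6 passing miRNAs of each list with the smallest adjusted p, while other hairpins and miRNAs named were chosen after their values were seen. The members and lists were chosen with earlier results of these data known. The alternative settings changed background, scaling, filter, NG spots, block, weights or left out 1 array.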

Additional observations from a re-analysis of the deposited data

Results flagged for a closer look

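Groups of arrays were examined for a lone extreme array by Dixon's criterion, which chance meets in about 1 of 20 groups. Of 12 such tests of a measure within a group, 3 met it, all through lenvatinib replicate 5. The normalized log2 value of miR-140-5p was 4.10 there, against 5.39 to 5.74 on the other 4. Its background-subtracted intensity was 33.9, against 76.2 to 81.1. The blank level of that array was 85.5, against 62.2 to 64.9. MiR-140-3p, at 5.69 on that array against 5.84 to 6.35, and the difference of the arms, at -1.59 against -0.95 to -0.10, did not meet the criterion. The part of the blank level in these values was not tested.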

How the results depend on the processing

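Over the 23 alternatives other than no scaling, the log2 change stayed between -1.46 and -0.68 for miR-140-5p and between -0.70 and -0.32 for miR-140-3p, and the arm difference between -0.89 and -0.32. With no scaling the arms turned to 0.19 and 0.92, below the median of 1.30 of all tested probes, and 1289 probes passed in place of 289. With that setting 13 of the other 20 named miRNAs also turned positive, miR-106b-3p to 0.42, miR-106b-5p to 0.35, miR-130a-3p to 0.078, miR-1913 to 0.75, miR-19a-3p to 0.10, miR-21-5p to 0.37, miR-301a-3p to 0.31, miR-30e-5p to 0.27, miR-378a-3p to 0.68, miR-378c to 0.20, miR-455-3p to 0.99, miR-455-5p to 0.98 and miR-4711-3p to 0.66. Normexp correction with an offset of 50 gave -0.68 for miR-140-5p and -0.36 for miR-140-3p. Quantile normalization of raw brightness, without subtraction, gave -0.73 and -0.38 in the same order. Scaling to the spike controls gave -0.32 for miR-140-3p, and the cause of these shifts was not tested. Leaving out 1 array at a time gave -1.46 to -1.04 for miR-140-5p, -0.70 to -0.53 for miR-140-3p, -0.89 to -0.51 for the arm difference and 225 to 333 probes past the threshold. Fits that left out an array kept at least 4 in each group. With the replicate number as a block the changes were -1.34 ± 0.26 and -0.62 ± 0.15 and 257 probes passed. Same-numbered arrays deviated together at r of 0.0008 to 0.14, and 3 of 5 lenvatinib arrays correlated best with their own number. These values do not settle whether the numbers mark pairs, and the main fit did not take them as pairs.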

Other observations

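Over the 336 hairpins the 5p arm changed by 0.20 more than the 3p arm at the median, the opposite sign to miR-140 at -0.73, and the arms of 166 hairpins changed with the same sign, 100 of them downward.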
